A study of Mus musculus with 7 samples.

Results

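Bcl11a and Bcl11b are a pair of related zinc finger genes, and the chromatin accessibility of both loci was described here in LSK cells, the Lineage-c-Kit+Sca-1+ fraction of bone marrow with the stem cells and early progenitors of blood. The members were chosen by the place of deposited ATAC-Seq peaks, as those whose summit lay in the body of Bcl11a (chromosome 11) or Bcl11b (chromosome 12) or within 100 kb of it, and those up to 1 Mb downstream of Bcl11b, on mm10. Joined across libraries, these peaks formed 118 candidate regions out of 180776 in all, of which 82 were at the Bcl11a locus, 29 at the Bcl11b locus and 7 in the far downstream interval, from 100 kb to 1 Mb past the 3′ end of Bcl11b. Of the 118, 77 were in the consensus, meaning called in 75% or more of the Ctrl or of the WTAkita libraries (73.3% of all candidate regions were), and 60 were called in all 7 libraries and could be tested. The rule used peak calls in these libraries, so the presence of peaks is a description and only the difference of the groups was tested.

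The files cover 3 libraries of Ctrl offspring, born to normal pregnancy, and 4 of WTAkita offspring, born to diabetic Ins2Akita/+ dams. All libraries came from wild-type adult mice on the C57/BL6 background, each from 50000 sorted cells. The WTAkita mice did not carry the Ins2Akita mutation, which impairs insulin secretion, so they met diabetes through the dam. Per the study's methods, the dams were put on a high-fat diet before mating with C57BL/6 males, Ctrl offspring came from a similar scheme, and offspring were kept on a regular diet. The number of mice behind a library was not stated in the labels or methods. Each p-value measures the spread between libraries, which the test (limma) draws towards that of regions with similar mean values.

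Bcl11a and Bcl11b encode repressors that bind DNA through zinc fingers and work with chromatin complexes such as NuRD and BAF. Bcl11a is known for silencing fetal globin genes in red cells, for B cell and dendritic cell development and for stem cell function. Bcl11b is known as the gene that fixes T cell identity, is silent in most other blood lineages, and is switched on in T cell precursors with the help of distant elements in the gene desert downstream of it.

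The libraries held 137963 to 151552 peaks and an estimated 37600000 to 53100000 tags. Their median fold enrichment, the summit pileup over that library's local background, was 5.25 in WTAkita replicate 1, 5.78 in WTAkita replicate 2, 5.79 in Ctrl replicate 1 and 6.32 to 6.59 in the other 4. Start sites of all 12 stem and progenitor markers, Kit and Ly6a among them, carried a peak in every library. Of 10 T cell markers, 5 did so and 3 (Cd8a, Themis and Trat1) had none in any library, and of 5 non-blood markers 4 had none. A peak in every library was also found for 3 of 6 B cell, 2 of 4 NK, 4 of 6 erythroid and 4 of 7 neutrophil and monocyte markers. The highest fold enrichment was 15.8 among stem and progenitor markers and 23.3 among T cell markers, so these peaks do not set cell types apart. In bulk cells, a smaller share of cells with an open site and less opening per cell cannot be told apart.

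The sequences of 7 regions are shown because the results turn on them: both promoters, the strongest site just inside Bcl11b, the strongest site downstream of Bcl11a, the far downstream site nearest to Bcl11b among those called in all libraries, and the pair of Bcl11b regions outside the promoter in which the groups did not overlap. Each is 200 bases of the GRCm38 (mm10) reference around the mean summit, moved off exons where one was near. The summits of the 7 libraries had an SD of 178 bp at the Bcl11a promoter. The SD was 114 bp at the Bcl11b region 843.3 kb past the start site, whose window was moved by 55 bases. These windows need not hold the summit of every library. Capitals mark matches on either strand to AGATAA for GATA factors, TGTGGT for RUNX, AGGAAG for ETS, CTTTGA for TCF1, TGGGAA for RBPJ, TGANTCA for AP-1, CAGCTG or CAGGTG for the E-box, TTNNGCAA for CEBP and AGGGGGC for the core of CTCF sites.
Bcl11a promoter, chr11:24077799-24077998, plus strand: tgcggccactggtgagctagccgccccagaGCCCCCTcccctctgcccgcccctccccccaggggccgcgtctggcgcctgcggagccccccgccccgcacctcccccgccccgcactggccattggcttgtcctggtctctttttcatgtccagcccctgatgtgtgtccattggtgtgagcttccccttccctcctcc
Bcl11a 107.0 kb past the start site, chr11:24184969-24185168, plus strand: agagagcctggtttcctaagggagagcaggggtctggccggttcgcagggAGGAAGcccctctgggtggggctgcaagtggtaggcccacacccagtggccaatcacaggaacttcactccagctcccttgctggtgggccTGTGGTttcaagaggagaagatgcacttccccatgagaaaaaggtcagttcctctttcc
Bcl11b promoter, chr12:108004037-108004236, plus strand: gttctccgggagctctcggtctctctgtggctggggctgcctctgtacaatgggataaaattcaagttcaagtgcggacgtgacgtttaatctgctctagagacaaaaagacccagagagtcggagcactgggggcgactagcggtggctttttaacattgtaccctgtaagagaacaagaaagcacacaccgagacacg
Bcl11b intron 1, chr12:107998775-107998974, plus strand: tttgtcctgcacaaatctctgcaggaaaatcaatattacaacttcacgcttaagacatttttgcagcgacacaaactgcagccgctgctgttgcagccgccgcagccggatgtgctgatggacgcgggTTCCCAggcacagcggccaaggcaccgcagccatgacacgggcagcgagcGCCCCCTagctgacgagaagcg
Bcl11b 99.8 kb upstream, chr12:108103348-108103547, plus strand: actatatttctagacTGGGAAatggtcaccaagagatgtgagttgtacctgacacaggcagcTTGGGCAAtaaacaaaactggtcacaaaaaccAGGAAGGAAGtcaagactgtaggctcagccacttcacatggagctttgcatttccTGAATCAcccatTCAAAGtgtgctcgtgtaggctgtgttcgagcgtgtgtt
Bcl11b 358.0 kb past the start site, chr12:107645475-107645674, plus strand: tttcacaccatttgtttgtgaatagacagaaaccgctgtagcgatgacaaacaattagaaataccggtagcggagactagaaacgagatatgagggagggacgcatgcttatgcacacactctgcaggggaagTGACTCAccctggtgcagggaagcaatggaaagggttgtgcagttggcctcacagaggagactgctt
Bcl11b 843.3 kb past the start site, chr12:107160209-107160408, plus strand: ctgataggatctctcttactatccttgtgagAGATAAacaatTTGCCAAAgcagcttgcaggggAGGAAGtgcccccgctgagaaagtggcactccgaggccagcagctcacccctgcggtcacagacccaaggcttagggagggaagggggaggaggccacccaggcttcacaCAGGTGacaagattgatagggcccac
The Bcl11a promoter window was 71.0% G+C and held 1 match, to the CTCF core letters on the minus strand. The Bcl11b promoter window was 51.5% G+C and held no match to any of the 9 motifs. The region 99.8 kb upstream of Bcl11b held 6 matches, to RBPJ, CEBP, ETS, AP-1 and TCF1 letters, of which the pair of ETS matches shared 2 bases.

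Accessible sites were dense at Bcl11a, and at Bcl11b their density was below that of the median gene. The Bcl11a locus (chr11:23978056-24274123, 296.1 kb) held 57 to 64 peaks per Ctrl library and 51 to 62 per WTAkita library, a mean of 19.98 per 100 kb over the 7 libraries. Among 21911 protein-coding genes taken with the same flanks, this density was at percentile 93.5, beside a median gene of 9.92 per 100 kb. The Bcl11b locus (chr12:107810403-108103602, 293.2 kb) held 21 to 23 peaks in Ctrl and 19 to 23 in WTAkita, or 7.26 per 100 kb, at percentile 36.4. Peaks covered 9.21% to 10.1% of the Bcl11a locus in Ctrl and 9.01% to 9.72% in WTAkita. At the Bcl11b locus they covered 2.83% to 3.21% and 2.68% to 3.26%. The ranges of the groups overlapped in both windows for the number of peaks, the length covered and the mean fold enrichment.

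The far downstream interval (chr12:106910403-107810402) held 5 or 6 peaks in each Ctrl library and 5 to 7 in each WTAkita library. The mean of 5.57 was below the median of 39.7 over 2848 windows of the same length across the genome, of which 18.8% held fewer. This interval is a gene desert, in which the annotation places lincRNA genes (Gm16087, Gm16086, Gm16085, Gm16084, Gm2800, Gm3234, 4930465M20Rik and Gm15208), pseudogenes (Gm5187, Gm17052 and Gm9006) and the protein-coding 3110018I06Rik. One stretch of 484.4 kb (chr12:107160678-107645103) had no peak in any of the 7 libraries. A second of 307.5 kb (chr12:107653523-107961042) had none either and took in 50.6 kb of the 3′ part of Bcl11b, or 54.3% of the gene.

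**Figure D1:**
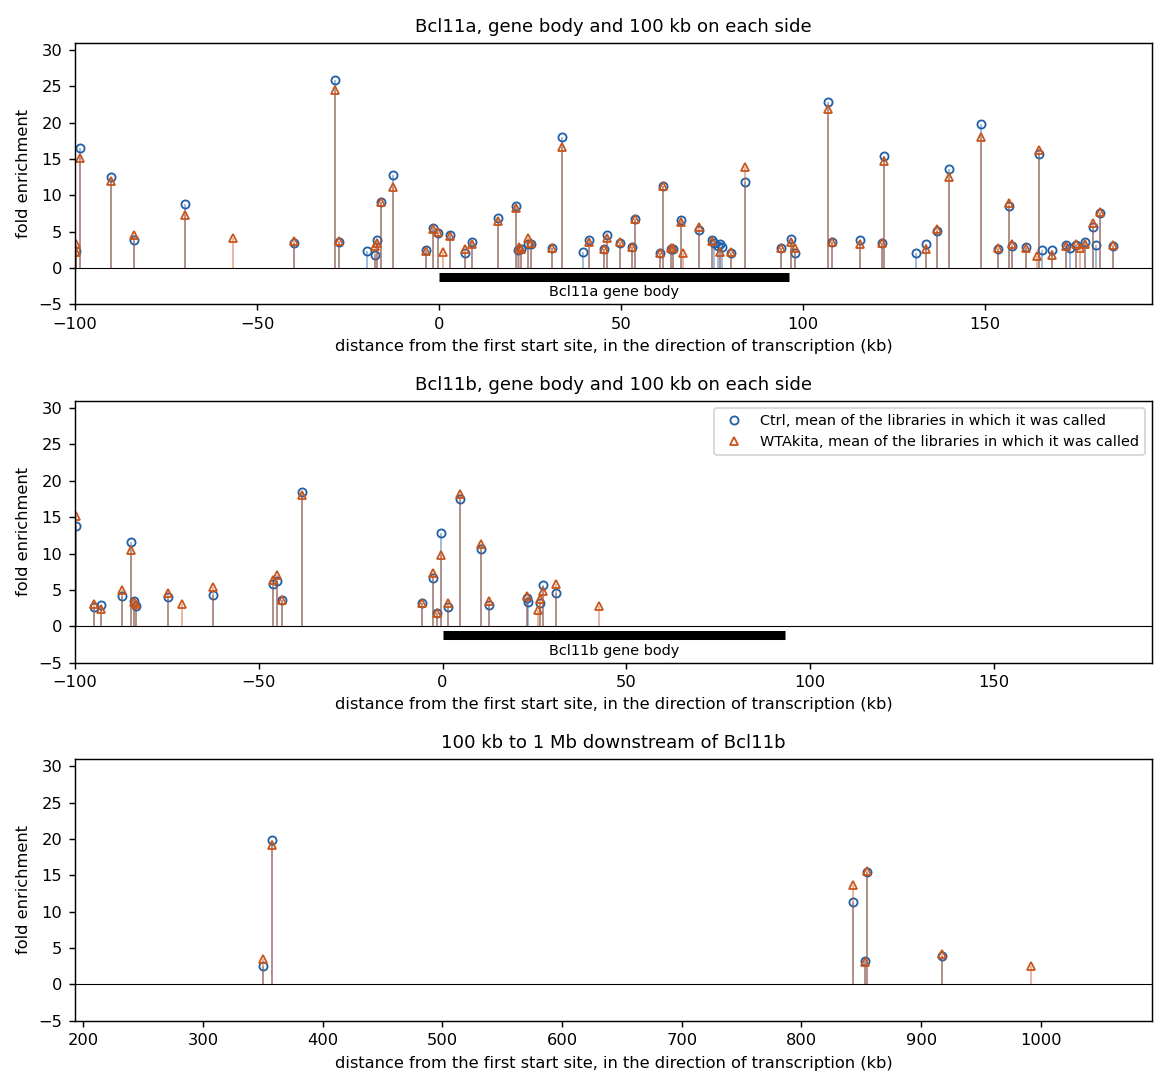
Fold enrichment (vertical axis, over local background) of the 118 candidate regions against the distance in kb from the first start site of Bcl11a (top) and Bcl11b (middle and bottom), running in the direction of transcription. Circles are Ctrl means and triangles WTAkita means over the libraries in which a region was called, and the black bars are the gene bodies. Regions are spread over the whole Bcl11a locus, whereas the stretch of 307.5 kb from within Bcl11b to the far downstream interval is empty.

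The accessible sites of Bcl11a lay mostly in its long second intron and on the flanks. Of its 82 candidate regions, 30 were in intron 2, 3 in intron 1, 1 each in introns 3 and 4, 18 upstream and 29 downstream, and of the 42 called in all 7 libraries 15 were in intron 2, 11 upstream and 14 downstream. At the Bcl11b locus, 18 of 29 candidate regions were upstream, 4 were in intron 1, 6 in intron 2 and 1 in intron 3. None was found in the flank of 100 kb past its 3′ end. Other genes with a start site at the Bcl11a locus are A830031A19Rik, the miRNA gene Gm44381, the antisense genes Gm12064 and 4930538E20Rik and the lincRNA genes Gm12063, Gm12065 and Gm12066, whereas the Bcl11b locus holds no other. The mean fold enrichment over 7 libraries of the tested regions had a median of 5.72 (2.72 to 25.1) at Bcl11a, 6.85 (2.95 to 18.2) at Bcl11b and 14.1 (4.09 to 19.4) far downstream. Over all 109149 tested regions the median was 8.22. For the tested regions of each window, the median summit pileup was 11.6 tags per 10000000 at Bcl11a, 8.85 at Bcl11b and 21.3 far downstream. Bcl11a was thus below Bcl11b by median fold enrichment and above it by median pileup.

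At the margins of the windows, the last region inside the upstream edge of Bcl11a (0.2 kb from it) was called in 3 libraries at 2.35 to 3.65, and the first outside (0.8 kb) in all 7 at 8.01 to 11.4. On the upstream edge of Bcl11b the region just inside, 0.2 kb from the edge, reached 11.98 to 17.2 and the next one outside, at 6.7 kb, 5.18 to 8.32.

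No member passed the adjusted test. Over all 109149 tested regions, limma with Benjamini-Hochberg adjustment called 0 at an adjusted p under 0.05 (a background of 0%), and the smallest adjusted p was 1.00. At an unadjusted p under 0.05 it called 4227, or 3.87%. Of the 60 members, 4 (6.67%) were under this unadjusted level, 1 of 42 at Bcl11a, 2 of 14 at Bcl11b and 1 of 4 far downstream, with 3 higher and 1 lower in WTAkita. This count was 2 without Ctrl replicate 3, where 3.48% of all tested regions were under that level, 2 without WTAkita replicate 3 (4.38% of all) and 2 without WTAkita replicate 4 (4.5003%). It was 0 when pileups per tag were compared instead (0.874% of all) and 6 with the 3 least enriched libraries dropped (4.92%). With all 7 libraries the background was 1.77% higher and 2.11% lower. The groups did not overlap on the normalized log2 scale in 4 of the 60 members, 3 higher and 1 lower in WTAkita, beside 4.72% of all tested regions (2.46% higher and 2.26% lower). With 4 regions behind it, the share of 6.67% is near both backgrounds and is not a result about these loci.

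The differences of the 60 members ran from -0.33 to 0.40 on the log2 scale. Their median was 0.05, beside 0.0064 over all tested regions. Of the 60, 41 were above 0, beside 52.1% of all tested regions. At the Bcl11a locus 26 of 42 were above 0 with a median of 0.03, at the Bcl11b locus 11 of 14 with a median of 0.17, and far downstream 4 of 4 with a median of 0.14. Pileups per tag shifted the median of all tested regions to -0.12. Against that shift, 23 of 42 regions at Bcl11a, 11 of 14 at Bcl11b and 4 of 4 far downstream lay above the median of all regions. Without the 3 least enriched libraries the split at Bcl11b was 8 of 14, with a median of 0.04.

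**Figure D2:**
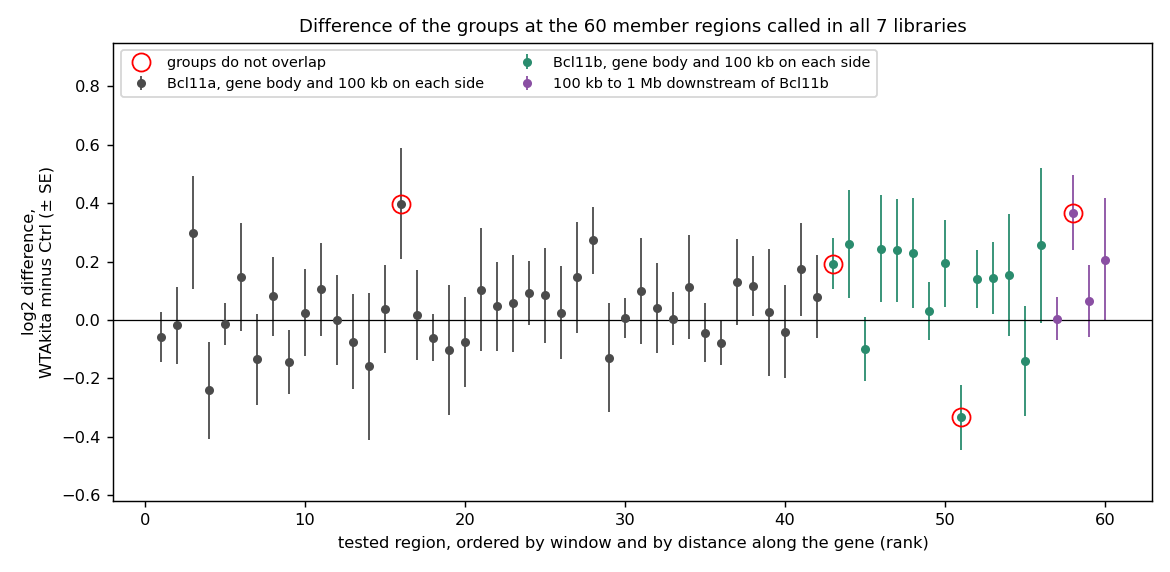
Log2 difference of normalized fold enrichment, WTAkita minus Ctrl, with its SE from limma, for the 60 members called in all 7 libraries, in rank order along the 3 windows. Red rings mark the 4 regions in which the groups did not overlap, of which 3 were higher in WTAkita and 1, the Bcl11b promoter at -0.33, was lower.

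The Bcl11a promoter was open in every library, with many tags over a high local background. Its region (chr11:24077145-24078214, 1070 bp) had its mean summit 157 bp upstream of the first start site, with an SD of 178 bp between libraries. Fold enrichment reached 4.52, 5.02 and 4.89 in Ctrl and 4.93, 4.54, 5.004 and 5.39 in WTAkita, so both groups sat near 5 and overlapped. Ctrl averaged 4.81 ± 0.257 (SD, n = 3) and WTAkita 4.96 ± 0.348 (SD, n = 4), a log2 difference of 0.10 ± 0.16 (SE) with an adjusted p of 1.00 from limma. Without WTAkita replicate 1 this difference was 0.023, beside 0.088 to 0.15 without any other single library, and on pileups per tag it was -0.11, beside -0.12 for the median of all tested regions. The summit pileup reached 52.7, 63.5 and 67.8 tags per 10000000 in Ctrl and 48.8, 46.7, 63.8 and 69.9 in WTAkita. In unscaled tags, the local background under it was 48.1 to 65.0, beside a summit pileup of 241 to 330. At the Bcl11b promoter the unscaled background was 6.21 to 8.03, beside a summit pileup of 65 to 115. Among 15569 promoters with a tested region, the Bcl11a promoter was at percentile 4.64 by fold enrichment and 56.8 by pileup.

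A further pair of wide regions flanked it with the same profile. The region 1.7 kb upstream (chr11:24075969-24076669), 168 bp from the start site of the lincRNA Gm12063, averaged 5.49 ± 0.481 (SD, n = 3) across Ctrl libraries and 5.38 ± 0.674 (SD, n = 4) across WTAkita, with the highest pileup of all 60 tested members, 61.4 tags per 10000000. The region 3.0 kb into the gene (chr11:24080549-24081678), in intron 1 and within 1000 bp of a second annotated start site, had 4.58 ± 0.39 (SD, n = 3) and 4.41 ± 0.318 (SD, n = 4) and a pileup of 51.0. Its log2 difference was -0.00019 ± 0.15 (SE). All 3 regions had a mean fold enrichment below the median of 8.22 over tested regions, and their pileup was at percentile 90.8 to 94.8 of the peaks of each library.

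**Figure D3:**
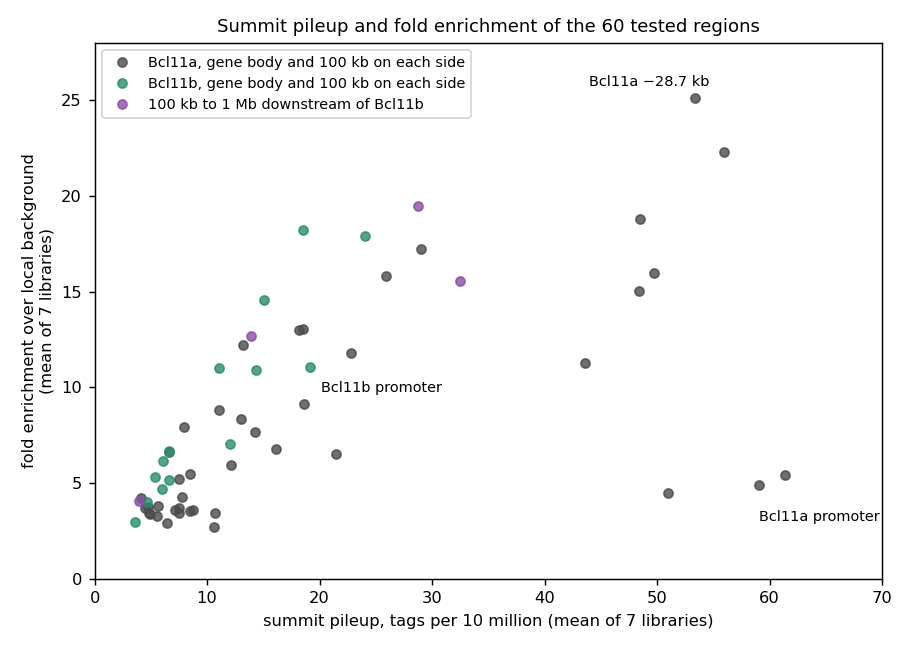
Mean summit pileup (horizontal axis, tags per 10000000) against mean fold enrichment over local background (vertical axis) of the 60 tested members, 1 point a region, coloured by window. The 3 points at the lower right, with a pileup of 51.0 to 61.4 and a fold enrichment near 5, are the regions around the Bcl11a start sites, and the region 28.7 kb upstream reached 25.1 at 53.4 tags.

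The strongest sites of the Bcl11a locus lay away from its promoter. The region 28.7 kb upstream (chr11:24049097-24050009), within the neighbouring gene A830031A19Rik, had a fold enrichment of 24.1, 29.4 and 24.2 in Ctrl and 19.9, 23.6, 26.4 and 28.3 in WTAkita. The groups overlapped, the lowest value was that of WTAkita replicate 1, and the log2 difference was -0.01 ± 0.07 (SE). It was at percentile 97.1 to 99.3 of the peaks of each library by fold enrichment and 90.3 to 94.4 by pileup. The region 107.0 kb past the start site (chr11:24184804-24185761), downstream of the gene, had 22.3, 23.4 and 22.7 in Ctrl and 19.1, 20.4, 23.4 and 24.9 in WTAkita. Its Ctrl libraries lay within the spread of the WTAkita ones, and its log2 difference was 0.01 ± 0.07 (SE).

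The other leading Bcl11a regions overlapped between groups as well. At 148.8 kb past the start site Ctrl averaged 19.8 ± 1.65 (SD, n = 3) and WTAkita 17.97 ± 2.43 (SD, n = 4). At 165.0 kb they were 15.6 ± 0.877 (SD, n = 3) and 16.2 ± 1.81 (SD, n = 4). In intron 2, the region at 33.8 kb (chr11:24111703-24112281), which also lies in the antisense gene Gm12064, had 18.03 ± 0.807 (SD, n = 3) and 16.6 ± 2.84 (SD, n = 4). These 3 regions differed by -0.08, 0.12 and -0.06 on the log2 scale with SE of 0.08, 0.10 and 0.08. A second intron 2 region, at 61.6 kb (chr11:24139060-24139984), combined a high pileup of 43.6 with 11.2 ± 1.53 (SD, n = 3) and 11.3 ± 1.13 (SD, n = 4).

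Within Bcl11a, 2 intron regions are described, neither of which passed the adjusted test. Of the 42 tested regions at this locus, 2.38% were under an unadjusted p of 0.05 from limma, beside 3.87% of all tested regions. Groups did not overlap in 2.38%, beside 4.72% of all. These shares are not a result about the locus. The intron 2 region at 24.4 kb (chr11:24102289-24102925) had a fold enrichment of 3.65, 2.74 and 3.49 in Ctrl and 4.65, 3.76, 4.19 and 4.22 in WTAkita. Every WTAkita library was above every Ctrl library, at a depth of 20 to 34 tags per summit. Ctrl averaged 3.29 ± 0.485 (SD, n = 3) and WTAkita 4.21 ± 0.365 (SD, n = 4), a log2 difference of 0.40 ± 0.19 (SE) with unadjusted p = 0.054 and adjusted p = 1.00 from limma. The difference became 0.24 without Ctrl replicate 2 and 0.27 to 0.52 without any other single library. No other member of this locus had groups that did not overlap. In intron 3 the region at 84.2 kb (chr11:24161886-24162555), also in the antisense gene 4930538E20Rik, had 10.98, 13.2 and 11.6 in Ctrl and 11.02, 10.98, 15.7 and 18.1 in WTAkita. On this deposited scale WTAkita replicates 3 and 4 were the highest and replicates 1 and 2 lay among the Ctrl libraries. After normalization WTAkita replicate 1 (3.74 in log2) was above the Ctrl libraries (3.44 to 3.59), and replicate 2 (3.58) still lay among them. The log2 difference was 0.27 ± 0.12 (SE), with unadjusted p = 0.033 and adjusted p = 1.00 from limma.

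The Bcl11b promoter had the largest difference towards lower values among the 60 members. Its region (chr12:108003839-108004417, 579 bp) had its mean summit 535 bp upstream of the start site. Fold enrichment reached 11.97, 13.7 and 12.8 in Ctrl and 7.46, 10.2, 9.91 and 11.4 in WTAkita. Every Ctrl library was above every WTAkita library, and WTAkita replicate 1 was the lowest. Ctrl averaged 12.8 ± 0.851 (SD, n = 3) and WTAkita 9.74 ± 1.65 (SD, n = 4), a log2 difference of -0.33 ± 0.11 (SE) with unadjusted p = 0.010 and adjusted p = 1.00 from limma, so it did not pass over all regions. The summit pileup reached 19.9, 22.1 and 24.2 tags per 10000000 in Ctrl and 13.2, 17.1, 18.3 and 18.98 in WTAkita and did not overlap either. On this scale the log2 differences of all tested regions had a median of -0.12, and 21.7% of them were above 0. The share of all regions without overlap was not counted on it. Without any single library the log2 difference was -0.39 to -0.30, and without the 3 least enriched libraries it was -0.34 ± 0.13 (SE). Summed over the 10 T cell markers, fold enrichment at start sites spanned 62.7 to 68.4 in Ctrl and 57.4 to 70.4 in WTAkita.

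The 3 tested regions nearest to the Bcl11b promoter had higher means in WTAkita than in Ctrl. The region in intron 1, 4.7 kb into the gene (chr12:107998715-107999134), had a fold enrichment of 13.8, 20.9 and 17.7 in Ctrl and 15.2, 18.5, 20.6 and 18.4 in WTAkita. It exceeded the promoter in each of the 7 libraries, the groups overlapped, and the log2 difference was 0.14 ± 0.10 (SE). The region 10.4 kb into the gene (chr12:107992910-107993503) had 10.7 ± 1.78 (SD, n = 3) and 11.3 ± 2.17 (SD, n = 4), a difference of 0.14 ± 0.12 (SE). The region 2.7 kb upstream (chr12:108006091-108006567) had 6.67 ± 0.992 (SD, n = 3) and 7.30 ± 0.815 (SD, n = 4), a difference of 0.19 ± 0.15 (SE). Without single libraries these differences ran from 0.043 (without Ctrl replicate 1) to 0.24 at 4.7 kb, from 0.059 (without Ctrl replicate 2) to 0.25 at 10.4 kb and from 0.14 to 0.28 at 2.7 kb. With the 3 least enriched libraries dropped they were -0.0062, 0.17 and 0.03. Each of the differences over 7 libraries was within 2 SE of 0, and the contrast between promoter and neighbours was not tested.

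Upstream of Bcl11b, the region strongest by fold enrichment lay 38.1 kb away (chr12:108041542-108042142). There Ctrl averaged 18.5 ± 3.31 (SD, n = 3) and WTAkita 18.03 ± 3.43 (SD, n = 4), with a log2 difference of 0.03 ± 0.10 (SE). The region 99.8 kb upstream (chr12:108103129-108103941), whose sequence held the most motif matches of the 7 shown, had 13.03, 14.2 and 14.2 in Ctrl and 11.98, 14.7, 16.6 and 17.2 in WTAkita. On this deposited scale WTAkita replicate 1 was the lowest of all, and only after normalization across libraries did the groups not overlap. The log2 difference was 0.19 ± 0.09 (SE), with unadjusted p = 0.045 and adjusted p = 1.00 from limma.

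Far downstream of Bcl11b, 4 regions were called in every library. The strongest by fold enrichment lay 358.0 kb past the start site (chr12:107645104-107645979). It stood alone between the 2 empty stretches, with 1 weaker region called in 5 libraries beside it. Its fold enrichment reached 17.5, 21.8 and 20.4 in Ctrl and 15.6, 18.2, 21.8 and 20.8 in WTAkita, and its log2 difference of 0.0046 ± 0.07 (SE) was smaller than its error. It reached percentile 91.6 to 94.7 of the peaks of each library by fold enrichment.

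The other 3 were at or in lincRNA genes. The region 855.0 kb past the start site (chr12:107148251-107149248), within Gm16084, had 16.7, 15.7 and 14.1 in Ctrl and 14.7, 11.7, 17.8 and 18.1 in WTAkita and a log2 difference of 0.06 ± 0.12 (SE). The region at 843.3 kb (chr12:107159698-107160677) had its mean summit 47 bp from the start site of Gm16084, with an SD of 114 bp between libraries. Its printed sequence lies upstream of that start. It had 11.5, 13.1 and 9.17 in Ctrl and 12.8, 12.8, 13.8 and 15.4 in WTAkita. Of these, Ctrl replicate 3 was the lowest and Ctrl replicate 2 overlapped WTAkita. After normalization the groups did not overlap, with a log2 difference of 0.37 ± 0.13 (SE), unadjusted p = 0.013 and adjusted p = 1.00 from limma. The depth was 38 to 78 tags per summit, and without Ctrl replicate 3 the difference was 0.21, beside 0.31 to 0.46 without any other single library. The region at 917.2 kb (chr12:107086269-107086632), in Gm16086, was the weakest of the 4, with 3.87 ± 1.21 (SD, n = 3) and 4.25 ± 0.866 (SD, n = 4).

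**Figure D4:**
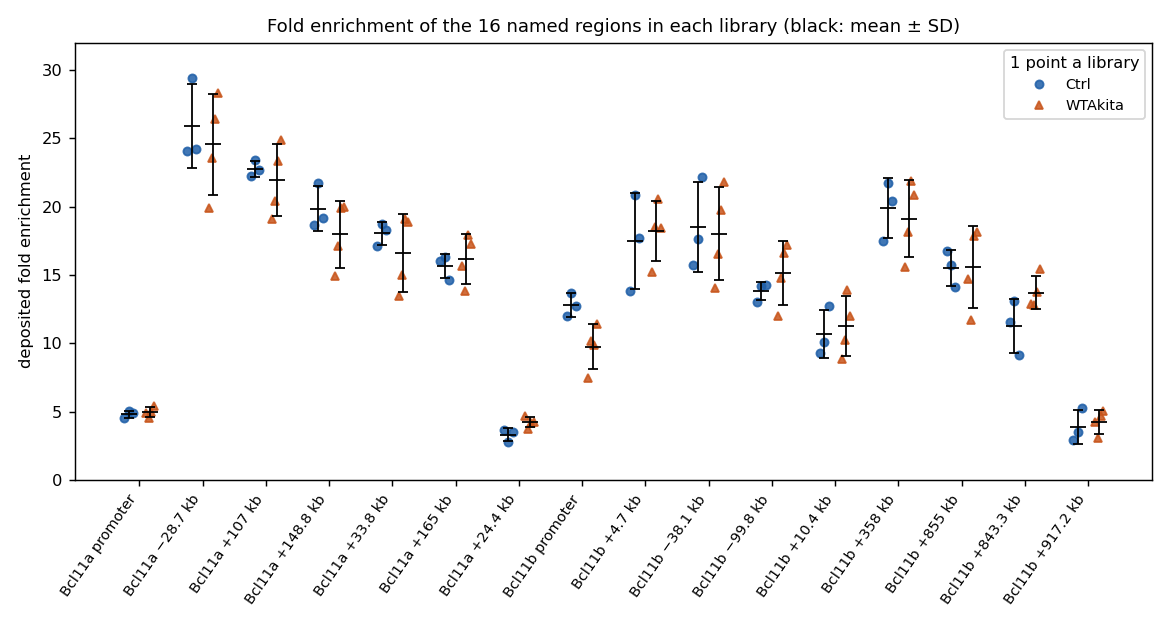
Deposited fold enrichment (vertical axis) of the 16 regions named by rule, 1 point a library, circles for Ctrl and triangles for WTAkita, with black bars for the mean ± SD of 3 and 4 libraries. The groups are separate at the Bcl11b promoter, where Ctrl is higher, and at Bcl11a +24.4 kb, where WTAkita is higher, and they overlap at the other 14 regions on this scale.

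Which members were called differed between libraries. Of the 118 candidate regions, 50.8% were called in all 7 libraries and 16.9% in a single one, beside 60.4% and 13.4% of all candidate regions. No member was called in every library of a group and in none of the other (0 of 118), beside 0.113% of all candidates for Ctrl and 0.0924% for WTAkita. None was called in at least 3 libraries of a group and none of the other, beside 0.73%. With shares this low over all candidates, counts of 0 among 118 are near the background and are not a result about these loci. The region nearest to this was 350.3 kb past the Bcl11b start site, called in 1 of 3 Ctrl and 4 of 4 WTAkita libraries with a mean fold enrichment of 3.32, and it was picked out after its values were seen.

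Motif letters were counted in the members and in all accessible regions, with no test of the shares. In windows of 300 bases around the mean summit, ETS letters occurred in 43 of 77 consensus members (55.8%), beside 52.9% of all 132513 consensus regions, and RUNX letters in 21 (27.3%), beside 30.97%. GATA letters occurred in 10.4% of members and 12.4% of all, TCF1 in 16.9% and 18.1%, RBPJ in 28.6% and 24.5%, CEBP in 11.7% and 12.04%, AP-1 in 6.49% and 10.98%, and CTCF core in 10.4% and 9.06%. E-box letters had the widest gap, in 20 of 77 members (26.0%) beside 36.0% of all, with 8 of 51 at Bcl11a, 9 of 20 at Bcl11b and 3 of 6 far downstream. The letters of RBPJ, the factor through which Notch signals, occurred in 11 of 51, 9 of 20 and 2 of 6. The median G+C content was 50.7% at Bcl11a, 54.2% at Bcl11b and 55.2% far downstream, beside 49.7%.

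Promoters of genes that work with Bcl11a and Bcl11b were read in the same fit. Of 28 genes of T lineage commitment, where Bcl11b acts, 23 had a tested promoter, 19 were above 0 and 0 passed the adjusted test, with a median log2 difference of 0.05. The median of all 15569 promoters was 0.03, and 10219 of these were above 0. Among the 23, the recombinase gene Rag1 (0.39 ± 0.15, SE) and Bcl6 (0.18 ± 0.16) were farthest above 0, and Tcf7, an early T cell factor, (-0.08 ± 0.14) and Cd3d (-0.04 ± 0.09) farthest below, each with adjusted p = 1.00. On pileups per tag Bcl6 was at -0.0085, and without Ctrl replicate 1 Cd3d was at 0.015. Rag1 ranged in fold enrichment from 6.40 to 7.81 in Ctrl and 8.27 to 10.3 in WTAkita.

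Of 28 B lineage, dendritic and globin genes linked to Bcl11a, 22 had a tested promoter, 15 were above 0 and 0 passed, with a median of 0.03. Tcf4 (0.34 ± 0.11, SE) and Flt3 (0.13 ± 0.10) were farthest above 0, and the adult beta globin genes Hbb-bs (-0.21 ± 0.15) and Hbb-bt (-0.16 ± 0.16) farthest below, each with adjusted p = 1.00. On pileups per tag Flt3 was at -0.096. A further list was drawn from general knowledge around the NuRD and BAF complexes and also held Kdm1a and Rcor1. All 34 of its genes had a tested promoter, 24 were above 0 and 0 passed, with a median of 0.06. Arid1a (0.15 ± 0.15, SE) and Ss18 (0.13 ± 0.14) were farthest above 0 and Chd3 (-0.06 ± 0.17) and Kdm1a (-0.06 ± 0.09) farthest below. On pileups per tag Arid1a was at -0.040 and Ss18 at -0.016, and without WTAkita replicate 3 Chd3 was at 0.065. At an unadjusted p under 0.05, 1, 1 and 0 genes of the 3 lists were found, beside 1.57% of all promoters.

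Across the 7 libraries, the promoters whose normalized log2 values most resembled those of Bcl11a were Ccdc107, Cspg5 and Stat5a, with Pearson's r of 0.985, 0.985 and 0.982 among 15568 promoters compared. Those most like Bcl11b were Gzmk, with r of 0.997, and the neighbours Mrpl13 and Mtbp, which share a region, with 0.981. These are descriptions over 7 points that share library depth and enrichment, and 394 promoters exceeded 0.9 for Bcl11a and 24 for Bcl11b.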

How the data were processed

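The authors made ATAC-Seq libraries from LSK cells, 3 of Ctrl and 4 of WTAkita offspring. Per the labels and the study's methods, reads were trimmed (Trim Galore 0.4.2, cutadapt 1.9.1), aligned to mm10 (Bowtie2 2.3.4.1), stripped of duplicates and extended to 150 bp, and MACS2 (2.1.4 by the submitters' notes) called peaks per library at p 0.01 with no control. Fold enrichment, as deposited, is the ratio of summit pileup to local background, each plus 1, and was not scaled across libraries. Their −log10 p-values and q-values, also deposited, served for stricter thresholds and to solve the pileup, which was whole within 0.02 for 99.9958% to 99.998% of lines. The deposited score, 10 times the −log10 p, was not used. The study's test on read counts was not run, as counts were not analysed here. Tags were estimated from the background level.

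Peaks sharing 50% of the shorter length were joined. Log2 fold enrichments of regions called in all 7 libraries were quantile-normalized and compared with limma 3.58.1 (trend, R 4.3.3, Benjamini-Hochberg over 109149 regions). A promoter is a region with its summit within 1000 bp of a GENCODE start site, and for Bcl11a the strongest of those nearby. Named regions were, in each window, the 5 of highest mean and up to 2 per direction without overlap of the groups. The Bcl11a regions at -1.7, 3.0, 61.6 and 84.2 kb and the Bcl11b region at -2.7 kb from the start site were described after their values were seen. For lists, the 2 genes farthest above and below 0 were named. Members and lists were chosen with earlier results of these data known. All pairs of libraries differed by more than sampling noise (mean chi-square of pileups 1.08 to 1.81). The fit was tested on simulated data. Alternatives covered thresholds, joining, scaling, flank, trend, replicate block and each library left out. Leaving out the 3 libraries of lowest enrichment, and each library for peak counts, was added after the data were seen. Python 3.11.15, numpy 2.4.6, pandas 2.3.3, scipy 1.17.1 and matplotlib 3.10.9 were used.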

Additional observations from a re-analysis of the deposited data

Results flagged for a closer look

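In the 31 sets of 4 WTAkita values examined, 5 had 1 library far from the other 3, and chance gives such a flag in about 1 of 20 sets. All values here are normalized log2 fold enrichments. At the Bcl11a promoter, WTAkita replicate 1 was at 2.58 and the other 3 at 2.21 to 2.27. At the intron 2 region 24.4 kb past the Bcl11a start site, the same library was at 2.50 and the others at 1.96 to 1.99. At the Flt3 promoter it was at 4.15 and the others at 3.81 to 3.86. WTAkita replicate 1 has the lowest median fold enrichment of the 7 libraries, 5.25, and the part of this in these values was not tested. At the Hbb-bs promoter WTAkita replicate 4 was at 3.64 and the others at 3.25 to 3.31, and at the Chd3 promoter WTAkita replicate 3 was at 1.30 and the others at 1.77 to 1.86.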

How the results depend on the processing

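The lower value at the Bcl11b promoter and the higher ones 24.4 kb into Bcl11a, 99.8 kb upstream and 843.3 kb downstream of the Bcl11b start site kept their direction in every alternative run, and none passed the adjusted test in any. With single libraries left out, this direction was nearly fixed in advance, as the groups did not overlap in these 4 regions. With the highest of all overlapping peaks as the value, 1 region of the whole table passed as higher and 4 as lower. Deviations of Ctrl and WTAkita libraries with the same replicate number correlated at 0.21, 0.025 and 0.062, beside -0.18 to 0.10 for different numbers. Whether the numbers mark pairs was not tested. With the replicate block 0 regions passed as higher and 6 as lower. Without single libraries 0 were higher and 0 to 7 lower, the 7 without WTAkita replicate 4. No member was among these. Members at an unadjusted p under 0.05, 4 of 60 in the report beside 3.87% of all regions, were 0 for scaled summit pileup (0.874% of all), 5 with the block (6.21%), 5 of 52 for peaks at p under 1e-05 (3.74%), 6 with the 3 least enriched libraries dropped (4.92%) and 2 to 4 without single libraries (3.45% to 4.72%). The causes were not tested. Scaled pileup moved the median of all regions to -0.12 and turned the Bcl11a promoter to -0.11. It turned the regions of Bcl11a at -1.7, 61.6, 107.0 and 165.0 kb to -0.18, -0.10, -0.12 and -0.0032. Those of Bcl11b at -38.1, 358.0 and 855.0 kb came to -0.035, -0.12 and -0.11 with scaled pileup. Scaled pileup also turned the promoters of Bcl6, Flt3, Ss18 and Arid1a to -0.0085, -0.096, -0.016 and -0.040. The Bcl11a region at 3.0 kb, at -0.00019, came to 0.021 with median centring, 0.00062 with the highest overlapping peak, 0.0021 and 0.00017 at the stricter p and q, and 0.050 with the block. The block turned the 107.0 kb region of Bcl11a to -0.00081 and the -38.1 kb one of Bcl11b to -0.0089. Without single libraries the difference ran from -0.079 to 0.046 at Bcl11a -28.7 kb, -0.0085 to 0.057 at -1.7 kb, -0.04 to 0.048 at 3.0 kb, -0.015 to 0.047 at 107.0 kb, and for Bcl11b from -0.039 to 0.15 at -38.1 kb, -0.025 to 0.034 at 358.0 kb and -0.025 to 0.18 at 855.0 kb. It ran from -0.13 to 0.015 for Cd3d and -0.13 to 0.065 for Chd3. With the 3 least enriched libraries dropped, Bcl11a -28.7, -1.7, 33.8 and 61.6 kb came to 0.019, -0.034, 0.017 and -0.010, and Bcl11b 4.7 and 358.0 kb to -0.0062 and -0.0074. Differences in peak number and list medians moved by less than 1 SD in each alternative. With 13 to 22 tags at the summit of the weakest named region, 917.2 kb past the Bcl11b start site, and 11 to 20 at the one at 350.3 kb, depth limits what could be seen there.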
